A study of Homo sapiens with 18 samples.

Results

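The response of AMO1 cells to 100 nM YKL-5-124 was described over all measured genes, from 3 libraries treated with 100 nM and 3 libraries given DMSO, 6 of the 18 libraries of the series. These 6 were chosen by their labels alone. AMO1 is a human multiple myeloma line, a cancer of antibody-secreting plasma cells. YKL-5-124 is a covalent inhibitor of CDK7, and DMSO is its solvent. Cells of every group were exposed for 6 h in RPMI with fetal bovine serum in 12-well plates, and no genetic alteration was named in the labels. The remaining groups, each of 3 libraries, were AMO1 at 1000 nM and libraries labelled XG1 at 0, 100 and 1000 nM. The series title speaks of resistant myeloma lines. Nothing in the labels ties the replicates to separate cultures, and p-values therefore measure only how these libraries vary, which can be technical.

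CDK7, with cyclin H (CCNH) and MAT1 (MNAT1), forms the kinase module of the general transcription factor TFIIH. It phosphorylates RNA polymerase II as a gene begins to be transcribed, and outside TFIIH it activates the kinases that drive the cell cycle. After a few hours of such inhibition, transcripts with short lives are the first whose level can follow a change in synthesis. Myeloma cells keep up a transcription programme of plasma cells, with factors such as IRF4, PRDM1 and XBP1, and depend on protein folding and stress pathways.

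Each library came as a list of 26249 genes in FPKM, a level per kilobase of transcript and per library size. The libraries were made from the 3′ ends of transcripts, so an FPKM value can be compared for 1 gene between libraries, not between genes. No counts were given and the depth is unknown, so no counting interval was set. In the AMO1 DMSO libraries 9861 to 10571 genes reached 1 FPKM, and in the 100 nM libraries 9495 to 10267. All 12 plasma cell markers of a fixed list, among them SDC1, TNFRSF17 and IRF4, were at 1 FPKM or more, with summed levels of 5438 to 7467 FPKM in DMSO and 5868 to 6836 FPKM at 100 nM. Of 17 T cell and myeloid markers 14 stayed under 1 FPKM in all DMSO libraries and 15 in all 100 nM libraries, with sums of 10.4 to 11.1 and 7.06 to 9.78 FPKM. Sums over 20 erythroid markers were 105 to 172 and 120 to 171 FPKM, with 11 of them under 1 FPKM in either group. In either group 2 reached 10 FPKM in all libraries, and TFRC was among those not under 1 FPKM. Each sum can be compared for its own list between the groups, not with the sum of another list. The part of these other markers in the results was not tested. The libraries labelled XG1 go against their label, with high erythroid and several low plasma cell transcripts. In their DMSO group IRF4, PRDM1 and SLAMF7 had means of 0.171, 0.17 and 0.185 FPKM, while XBP1 had 53.9 FPKM. These libraries are named by their label only.

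At 100 nM 268 of 12204 tested genes passed the test (2.2%), of which 53 were higher (0.434%) and 215 lower (1.76%) than in DMSO. A gene was tested when its mean reached 1 FPKM in at least 1 group. It was called at an adjusted p under 0.05 from limma on log2(FPKM + 1). All log2 changes below are on that scale, which understates the change of low genes. Of the called genes 24 rose and 53 fell by at least 2-fold. The 3 libraries of either group did not overlap for 265 of the 268, beside 2292 of all tested genes (18.8%).

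The median change of all tested genes was -0.09, and the median level of a library was lower at 100 nM by 0.18 on the log2 scale. When each library was centred on its own median, 477 genes were called, 289 higher and 188 lower, so the share of falls among the calls depends on the scaling. With quantile normalization 205 were higher and 254 lower. A fit to the 6 libraries alone called 6 genes. DMSO replicate 3 had a median log2 level of 2.64 over all tested genes, beside 2.85 and 2.95 in replicates 1 and 2. Replicate 2 was lowest at 100 nM, at 2.46 beside 2.70 and 2.76. Their FPKM summed to 1649175 and 2072842, but to 1022827 and 1288481 without genes named SNAR. The other libraries of both groups had 1654927 to 1896255 FPKM, and 1263319 to 1418229 without these genes. Without DMSO replicate 3, 942 genes were called, 60 higher and 882 lower. Leaving out any other of the 6 libraries gave 100 to 196 calls. Called whichever library was left out were 23 of the rises and 44 of the falls. Bulk libraries cannot tell apart fewer cells of a type and less RNA per cell.

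**Figure D1:**
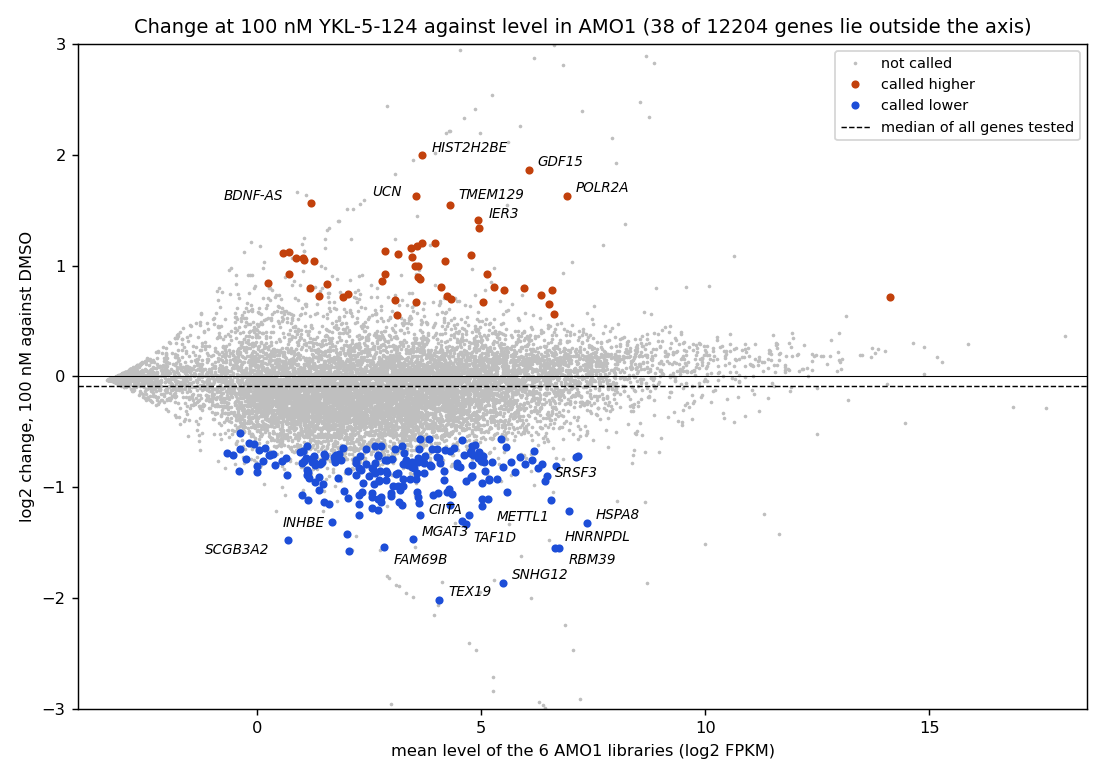
Log2 change at 100 nM against DMSO (vertical axis) by mean level of the 6 AMO1 libraries (horizontal axis, log2 FPKM), 1 point a gene, with called genes in colour and some named. The 53 called rises and 215 called falls lie on both sides of the all-gene median of -0.09, and 38 genes, 1 of them called, lie outside the vertical axis.

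Genes of the kinase and its substrate came first. CDK7 itself stood at 9.36, 12.0 and 14.7 FPKM in DMSO and at 8.74, 7.05 and 8.30 FPKM at 100 nM. Its groups did not overlap, but the difference of -0.51 ± 0.20 (log2, SE) did not pass the test (adjusted p = 0.20). Cyclin H and MAT1 had differences of 0.01 ± 0.28 and -0.06 ± 0.26, with overlapping groups. POLR2A, the polymerase subunit that carries the tail phosphorylated by CDK7, rose. Its levels were 71.5, 64.0 and 41.1 FPKM in DMSO and 203, 151 and 188 FPKM at 100 nM. Every treated library was more than double the highest control library, and the log2 change was 1.63 ± 0.18 (adjusted p = 2.41e-05).

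CDK12, a kinase of the elongating polymerase, fell from 5.86, 7.10 and 7.23 FPKM to 3.95, 3.33 and 4.51 FPKM. The change of -0.65 ± 0.17 lay near the threshold (adjusted p = 0.0462), and the call was lost without any 1 of the 6 libraries, with an adjusted p of up to 0.205. The remaining 32 of 34 tested genes of this list, which holds TFIIH, the transcription kinases and polymerase subunits, were not called, and the list median was -0.02. One of them was HEXIM1, the inhibitor of the elongation factor P-TEFb, singled out after its values were seen. It had 7.46, 8.46 and 7.60 FPKM in DMSO and 17.1, 10.7 and 14.5 FPKM at 100 nM, without overlap (0.75 ± 0.23, adjusted p = 0.087).

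The splicing regulators, HNRNPDL and RBM39, were among the 12 largest named falls. HNRNPDL, a nuclear ribonucleoprotein that acts in splicing, stood at 173, 166 and 112 FPKM in DMSO and 45.2, 50.3 and 54.4 FPKM at 100 nM. The treated libraries lay close together around a mean of 49.96 FPKM, beside a control mean of 150 FPKM, and the change was -1.55 ± 0.15 (adjusted p = 9.91e-06). RBM39, a splicing factor related to U2AF, had 192, 180 and 111 FPKM in DMSO and 52.1, 47.2 and 60.4 FPKM at 100 nM (-1.54 ± 0.18, adjusted p = 6.32e-05). For both genes DMSO replicate 3 was the lowest control and still far above the highest treated library.

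SRSF3, a serine and arginine rich splicing factor, fell from 120, 116 and 105 FPKM to 55.8, 56.8 and 63.6 FPKM (-0.94 ± 0.13, adjusted p = 0.000758). Both groups were narrow for this gene and clearly apart. Also lower were the RNA helicase DDX17 (-0.96 ± 0.18), SRSF7 (-0.82 ± 0.16), SRSF6 (-0.76 ± 0.16) and SON, a large scaffold of nuclear speckles (-0.82 ± 0.17). SRSF7, SRSF6 and SON lie outside the naming rule and were named after their values were seen. All 4 lost their calls without 100 nM replicate 2. SRSF7, SRSF6 and SON did so also without DMSO replicate 1, SRSF6 without DMSO replicate 2 and SON without 100 nM replicate 1 (adjusted p up to 0.0512 for DDX17, 0.0536 for SRSF7, 0.0855 for SRSF6 and 0.0854 for SON). Of 37 splicing factors tested 7 fell and 0 rose, 18.9% lower beside 1.76% of all genes. Their median was -0.20 and 30 of 37 lay below 0, beside 65.5% of all genes. With libraries centred, 7 fell, 1 rose and the median was -0.02. Between 3 and 7 were lower when a library other than DMSO replicate 3 was left out, and 13 without that one.

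Hosts of small nucleolar RNAs, the guides of ribosomal RNA modification that lie in the introns of other genes, were lower as well. SNHG12 had 79.2, 73.8 and 59.7 FPKM in DMSO and 14.8, 19.8 and 22.0 FPKM at 100 nM. Even the lowest control was well over double the highest treated library, and the change was -1.86 ± 0.20 (adjusted p = 2.75e-05). TAF1D, which codes for a subunit of the RNA polymerase I factor SL1 and hosts such RNAs, stood at 35.5, 39.8 and 34.8 FPKM in DMSO and 13.8, 11.9 and 16.4 FPKM at 100 nM (-1.33 ± 0.16, adjusted p = 8.64e-05).

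SNHG3 fell from 56.6, 46.5 and 33.7 FPKM to 18.1, 18.8 and 20.9 FPKM (-1.17 ± 0.20, adjusted p = 0.00287). SNHG7 fell from 151, 119 and 118 FPKM to 71.2, 47.1 and 60.9 FPKM (-1.11 ± 0.18, adjusted p = 0.00183). SNHG17 (-0.92 ± 0.19) and SNHG1 (-0.79 ± 0.15), outside the naming rule and named after their values were seen, were also called. The call of SNHG17 was lost without 100 nM replicate 2 or DMSO replicate 1 or 2 (adjusted p up to 0.0857). Of 20 hosts tested 6 fell (30.0%, beside 1.76% of all genes) and 0 rose. Below 0 lay 18 (90.0%, beside 65.5% of all genes), and the median was -0.50. The median was -0.32 with libraries centred, with 5 lower, and 5 or 6 were lower when any library but DMSO replicate 3 was left out, 11 without it. The snoRNA host and splicing lists were written with earlier results from these libraries at hand, so their counts are not independent evidence.

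Chaperone and nucleolar genes gave single falls. HSPA8, the constitutive Hsp70 chaperone, stood at 233, 199 and 267 FPKM in DMSO and 106, 70.1 and 105 FPKM at 100 nM (-1.32 ± 0.22, adjusted p = 0.00271). No other of the 19 heat shock genes tested was called, and 2 were lower without DMSO replicate 3. METTL1, the methyltransferase that modifies guanosine in tRNA, fell from 49.3, 55.7 and 30.5 FPKM to 20.1, 22.3 and 17.2 FPKM (-1.11 ± 0.19, adjusted p = 0.00334). The nucleolar ribosome assembly genes NOP16 (-0.72 ± 0.18, adjusted p = 0.0424) and PPAN (-0.68 ± 0.15, adjusted p = 0.0204) were lower too. Both calls were lost without any 1 of the 100 nM libraries or DMSO replicate 2, and that of NOP16 also without DMSO replicate 1 (adjusted p up to 0.218 and 0.118).

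MYC, the transcription factor behind much of that programme, had 30.4, 32.0 and 62.4 FPKM in DMSO and 24.0, 19.3 and 23.9 FPKM at 100 nM. The groups did not overlap, but DMSO replicate 3 was far above the other controls and the difference of -0.79 ± 0.29 did not pass the test (adjusted p = 0.172). Of 29 tested genes of the MYC network 2 were lower (6.90%, beside 1.76% of all genes). Below 0 lay 25 (86.2%, beside 65.5% of all genes), with a median of -0.31 and of -0.13 with libraries centred. Without DMSO replicate 3, 12 were lower. Among 57 ribosomal protein genes 0 were called by limma, 0 also at an unadjusted p under 0.05, and the median was 0.10, which became -0.11 without DMSO replicate 3. The 36 nuclear genes of the respiratory chain likewise had 0 calls, 2 at an unadjusted p under 0.05, and a median of 0.12, or -0.06 without that library.

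**Figure D2:**
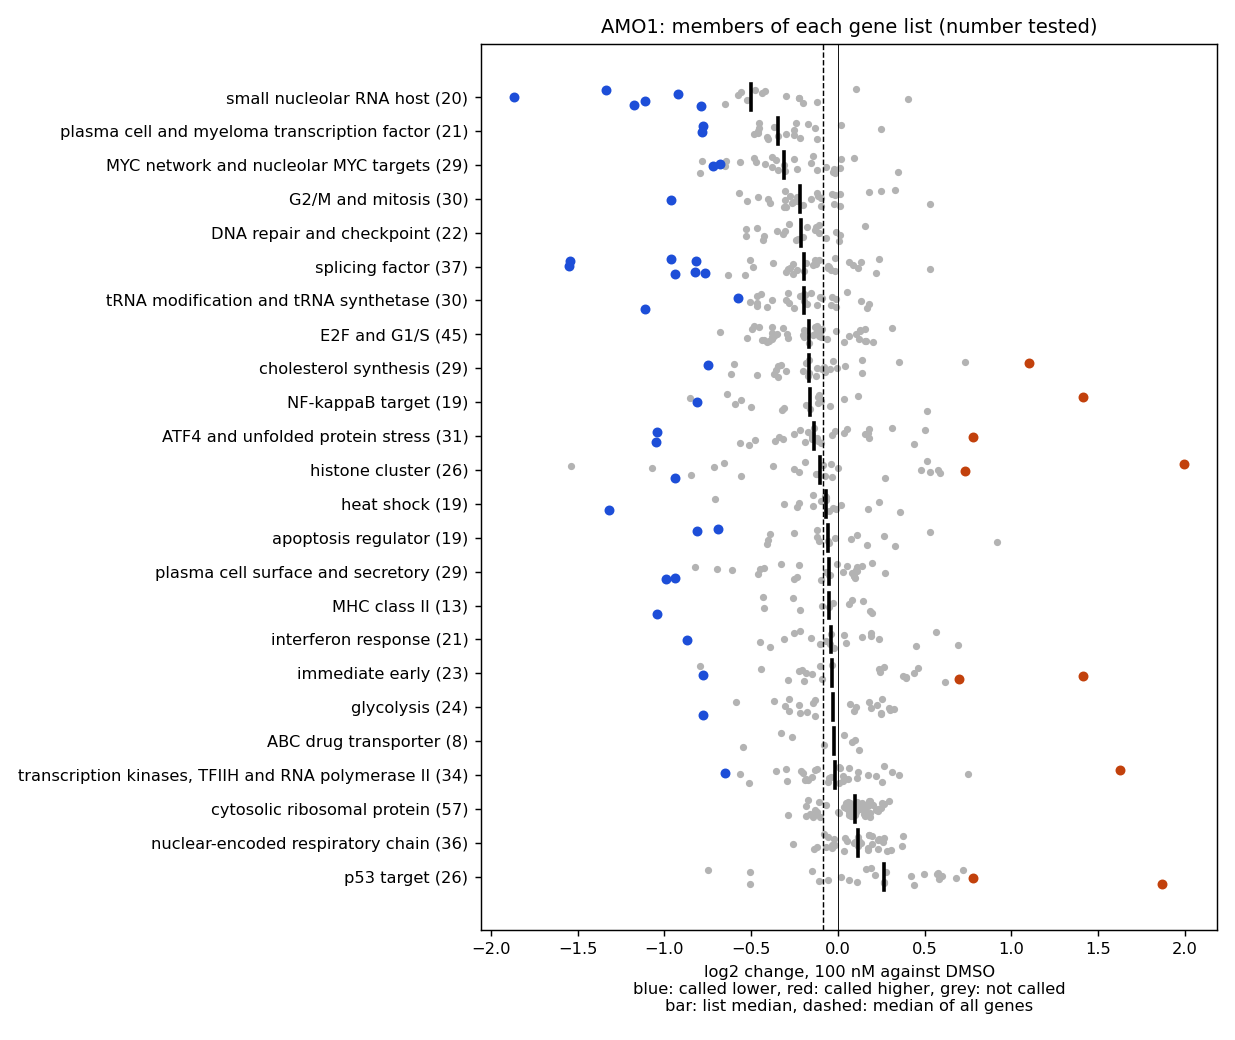
Log2 change at 100 nM against DMSO of every tested member of 24 gene lists in AMO1 (horizontal axis), 1 row a list, with list medians as bars and the all-gene median dashed. The snoRNA host list has the lowest median, -0.50, with 6 called falls, and the p53 target list the highest, 0.26, with 2 called rises.

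Of 45 E2F and G1/S genes 0 were called by limma (9 had an unadjusted p under 0.05, all lower), with a median of -0.17 that became 0.01 with libraries centred. Without DMSO replicate 3, 8 were lower. E2F1 had 26.3, 28.6 and 12.7 FPKM in DMSO and 16.5, 17.4 and 23.4 FPKM at 100 nM, with overlapping groups. RRM2, the ribonucleotide reductase subunit made in S phase, stood at 202, 201 and 148 FPKM in DMSO and 197, 190 and 211 FPKM at 100 nM (0.13 ± 0.14, adjusted p = 0.744). The mitotic kinase TTK was the sole call among 30 G2/M genes (-0.96 ± 0.25, adjusted p = 0.0484). Its call was lost without any 1 of the libraries except DMSO replicate 3 (adjusted p up to 0.236), and without that library 7 of the list were lower. Of 22 DNA repair and checkpoint genes 0 were called, and 3 had an unadjusted p under 0.05. Without DMSO replicate 3, 3 of these were lower. Over all genes 1846 had an unadjusted p under 0.05.

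Among the transcripts that rose, GDF15, a stress-induced cytokine of the TGF-beta family and a p53 target, had 36.7, 32.2 and 17.7 FPKM in DMSO and 115, 87.7 and 110 FPKM at 100 nM. The lowest treated library was more than double the highest control, and the log2 change was 1.87 ± 0.20 (adjusted p = 2.2e-05). HIST2H2BE, a histone H2B gene, rose from 5.07, 6.24 and 2.69 FPKM to 22.4, 16.4 and 24.3 FPKM (1.99 ± 0.21, adjusted p = 2.2e-05). It was the largest rise among the genes that the naming rule allows. HIST1H2BK, another H2B gene, rose by 0.73 ± 0.14, while the linker histone HIST1H1E fell (-0.94 ± 0.23, adjusted p = 0.0356), a call lost without 100 nM replicate 1 or 3 or DMSO replicate 1 or 2 (adjusted p up to 0.185). The histone list gave 2 rises and 1 fall of 26, and 2 falls without DMSO replicate 3.

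Both leading rises have a TATA box in their RefSeq promoters. The 100 bases before each start (GRCh38.p14, 5′ to 3′ on the gene's strand) are shown because these 2 genes rose most among those the rule names, with the letters TATAAA in capitals.
GDF15, chr19:18386058-18386157, plus strand: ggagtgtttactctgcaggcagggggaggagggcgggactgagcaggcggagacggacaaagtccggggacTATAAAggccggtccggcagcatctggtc
HIST2H2BE (H2BC21), chr1:149886683-149886782, minus strand: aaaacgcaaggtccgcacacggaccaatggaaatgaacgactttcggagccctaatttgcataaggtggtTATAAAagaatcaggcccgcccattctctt
The box began 29 bases before the start of GDF15 and 30 before that of HIST2H2BE. These letters, on the gene's strand and 50 to 11 bases before the start, are held by 767 of the 27305 RefSeq promoters (2.81%). Anywhere in the promoter and on either strand they are held by 3264 (12.0%). The TATA box was not among the motifs planned. Called rises and called falls both held it at that position, 7 and 10 genes among those with an entry. For the called rises 39 of 53 (73.6%) had an entry, under 80%, so no share over them was taken.

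SESN2, a sestrin induced by p53 and by amino acid stress, rose from 36.5, 40.3 and 24.7 FPKM to 56.5, 56.8 and 59.2 FPKM (0.78 ± 0.16, adjusted p = 0.0131). The call was lost without 100 nM replicate 2 (adjusted p = 0.0512). GDF15 and SESN2 were the 2 called genes of 26 p53 targets (7.69% higher, beside 0.434% of all genes). Of the 26, 20 lay above 0 (76.9%, beside 34.5% of all genes), with a median of 0.26. By limma 13 had an unadjusted p under 0.05, 10 of them higher. With libraries centred 8 were called and all rose, while without DMSO replicate 3, 2 rose and 2 fell. CDKN1A, the p21 inhibitor of cyclin-dependent kinases, had 263, 229 and 131 FPKM in DMSO and 270, 228 and 319 FPKM at 100 nM. These groups overlapped (0.44 ± 0.24, adjusted p = 0.412). MDM2, the p53 ubiquitin ligase, had a difference of -0.51 ± 0.19 (adjusted p = 0.177), opposite in sign to the list median.

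IER3, an immediate early gene of stress and NF-kappaB signalling, rose from 18.2, 19.5 and 11.4 FPKM to 37.2, 45.7 and 50.7 FPKM (1.41 ± 0.19, adjusted p = 0.000362). JUNB, an AP-1 subunit, rose by 0.70 ± 0.17 and KLF2, a zinc finger factor of lymphocytes, fell (-0.78 ± 0.20). The call of JUNB (adjusted p = 0.0387) was lost without 100 nM replicate 1 or 3 or DMSO replicate 1 or 2, and that of KLF2 (adjusted p = 0.0421) without any 1 of the 6 libraries, with an adjusted p of up to 0.168 and 0.195. EGR1, another early gene, had a difference of 0.39 ± 0.25 and overlapping groups.

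TMEM129, an ubiquitin ligase of the endoplasmic reticulum, rose from 10.9, 12.5 and 5.85 FPKM to 30.1, 25.9 and 32.0 FPKM (1.55 ± 0.20, adjusted p = 0.00018). UCN, the peptide hormone urocortin, rose from 3.75, 7.75 and 4.25 FPKM to 23.0, 14.1 and 16.6 FPKM (1.63 ± 0.28, adjusted p = 0.00324). HES6, a transcription factor of the HES family, rose from 7.55, 8.43 and 4.84 FPKM to 16.6, 14.6 and 18.8 FPKM (1.18 ± 0.18, adjusted p = 0.00128). In each of these 3 genes DMSO replicate 2 was the highest control and lay below every treated library. Further large rises were those of ZNF580 (1.20 ± 0.23), MFSD3 (1.16 ± 0.23), CEACAM21 (1.13 ± 0.22) and the sterol reductase TM7SF2 (1.10 ± 0.22). The antisense transcripts BDNF-AS (1.56 ± 0.23) and YTHDF3-AS1 (1.20 ± 0.24) were also higher. Strand use in counting is not known here, so reads of these 2 and of their partner genes may not be separable. YTHDF3-AS1 lost its call without 100 nM replicate 3 (adjusted p = 0.0511).

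**Figure D3:**
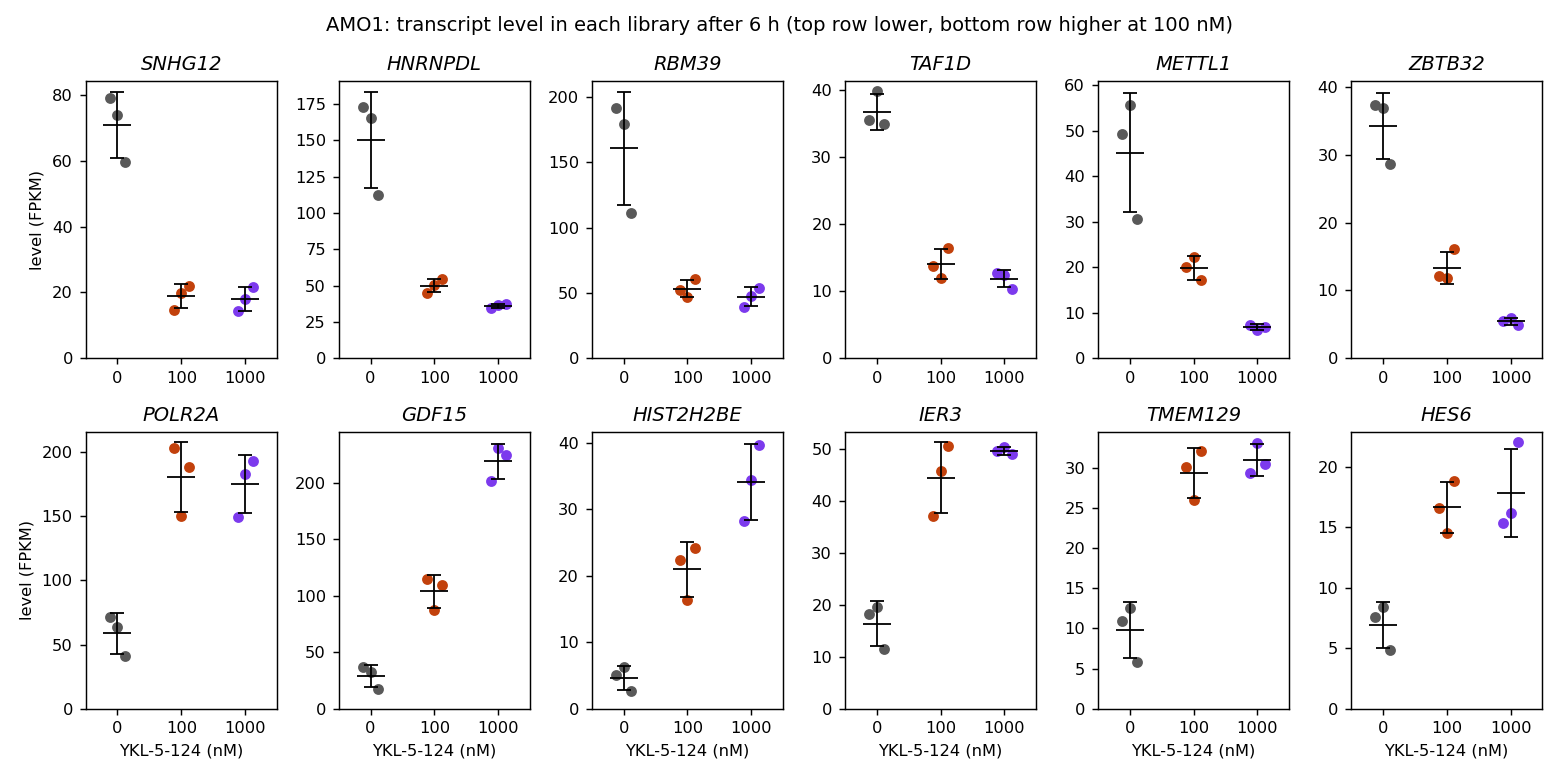
Level in FPKM (vertical axes, from 0) of 12 genes in each AMO1 library at 0, 100 and 1000 nM YKL-5-124 (horizontal axes), with means and SDs of 3 libraries. In every panel the 100 nM libraries lie apart from the DMSO libraries, with SNHG12 at a mean of 18.8 against 70.9 FPKM and POLR2A at 181 against 58.9 FPKM.

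Genes of the ATF4 pathway and the unfolded protein response, which plasma cells use to cope with secretory load and amino acid shortage, did not move one way. HERPUD1, a factor of endoplasmic reticulum degradation, fell from 58.0, 65.1 and 71.6 FPKM to 31.6, 27.9 and 33.3 FPKM (-1.04 ± 0.17, adjusted p = 0.0018). CHAC1, which degrades glutathione, fell from 10.7, 13.5 and 8.54 FPKM to 3.67, 4.37 and 6.31 FPKM (-1.05 ± 0.26, adjusted p = 0.0411). AARS, the alanyl tRNA synthetase, fell from 26.3, 36.1 and 24.2 FPKM to 18.5, 17.9 and 19.8 FPKM (-0.58 ± 0.15, adjusted p = 0.0454). All 3 genes were lower in every treated library. CHAC1 and AARS lost their calls without 100 nM replicate 1 or 2 or DMSO replicate 1 or 2, AARS also without 100 nM replicate 3 (adjusted p up to 0.178 and 0.227), and with libraries centred. Of 31 stress genes 2 fell, SESN2 rose and the median was -0.14, or 0.04 with libraries centred. Without DMSO replicate 3, 7 fell and 2 rose, with a median of -0.25. ATF4 itself had 513, 489 and 242 FPKM in DMSO and 246, 281 and 302 FPKM at 100 nM, overlapping in DMSO replicate 3 (-0.51 ± 0.20, adjusted p = 0.204). INHBE, the inhibin beta E chain, fell from 8.31, 7.40 and 3.51 FPKM to 1.52, 1.45 and 1.97 FPKM (-1.42 ± 0.24, adjusted p = 0.00271).

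The promoters of CHAC1, HERPUD1 and AARS each hold the letters TGATGCAA, a form of the element that ATF4 binds, and are shown for that reason. The windows run from 240 to 141 bases before the start (RefSeq, GRCh38.p14, gene strand, 5′ to 3′), with the element in capitals, here in its reverse complement TTGCATCA.
CHAC1, chr15:40953231-40953330, plus strand: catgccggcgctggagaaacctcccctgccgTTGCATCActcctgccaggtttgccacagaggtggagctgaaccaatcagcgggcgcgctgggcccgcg
HERPUD1, chr16:56931902-56932001, plus strand: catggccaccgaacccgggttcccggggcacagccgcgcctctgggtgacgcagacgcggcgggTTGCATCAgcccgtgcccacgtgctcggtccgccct
AARS (AARS1), chr16:70289647-70289746, minus strand: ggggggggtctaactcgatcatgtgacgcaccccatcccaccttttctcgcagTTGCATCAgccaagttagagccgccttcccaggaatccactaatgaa
The element began 209, 176 and 187 bases before the start of CHAC1, HERPUD1 and AARS. On either strand it stood in 252 of 27305 promoters (0.923%) and in 2 of the 28 stress genes with an entry. Of the 30 tRNA modification and synthetase genes, the list of AARS, 22 had an entry (73.3%), under 80%, so no share was taken. The other called falls whose promoters hold the element were IL21R, KNSTRN and NUP153, which were not chosen for display. Of the called rises with an entry, 1 held it as well. Also searched on both strands were the second ATF4 form TGATGAAA (1.10% of promoters), the E-box CACGTG (7.43%) and the E2F forms TTTGGCGC (0.659%) and TTTCCCGC (1.66%). These matches do not overlap the elements shown. Of the called falls 170 of 215 had an entry (79.1%), under 80%, so no share over them was taken. A match is a description of letters, not of binding.

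Plasma cell and lymphoid regulators gave scattered falls. ZBTB32, a zinc finger repressor of activated B cells and plasma cells, stood at 37.4, 36.8 and 28.7 FPKM in DMSO and 12.1, 11.8 and 16.1 FPKM at 100 nM (-1.30 ± 0.17, adjusted p = 0.000194). CIITA, the coactivator that switches on MHC class II genes, fell from 26.2, 30.3 and 20.7 FPKM to 11.6, 11.4 and 12.5 FPKM (-1.04 ± 0.15, adjusted p = 0.00115). In both genes the treated libraries lay at well under the lowest control. CIITA was the sole call among 13 genes of the MHC class II list, whose median was -0.05.

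IRF4, the factor on which myeloma cells depend, had 31.6, 32.6 and 34.2 FPKM in DMSO and 28.6, 20.0 and 26.0 FPKM at 100 nM. The groups did not overlap, yet the difference of -0.40 ± 0.15 did not pass the test (adjusted p = 0.193). PRDM1 (-0.12 ± 0.16) and XBP1 (-0.22 ± 0.17) had overlapping groups. Of 21 plasma cell and myeloma factors SPIB (-0.78 ± 0.19, adjusted p = 0.0359) and KLF2 were lower (9.52%, beside 1.76% of all genes). Below 0 lay 19 (90.5%, beside 65.5% of all genes). The median was -0.35, or -0.17 with libraries centred and then with 0 calls. Without DMSO replicate 3, 1 was lower. MYB, a haematopoietic factor named after its values were seen, fell from 26.2, 25.2 and 16.5 FPKM to 9.78, 9.01 and 12.0 FPKM (-1.05 ± 0.19, adjusted p = 0.00475).

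At the cell surface SLAMF7, the target of a myeloma antibody, fell from 36.6, 35.1 and 27.6 FPKM to 16.4, 12.9 and 21.6 FPKM (-0.94 ± 0.20, adjusted p = 0.0154). The receptor TNFRSF13B (TACI) was lower with overlapping groups (-0.99 ± 0.26, adjusted p = 0.0484). They were the 2 calls among 29 surface and secretory genes, of which 5 were lower without DMSO replicate 3. IRF1, an interferon response factor, fell by 0.87 ± 0.20 on the log2 scale (adjusted p = 0.0231). SPIB, SLAMF7, TNFRSF13B and IRF1 each lost the call without 100 nM replicate 1 or 2 or DMSO replicate 1 or 2 (adjusted p up to 0.214, 0.107, 0.273 and 0.136).

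Of 19 apoptosis regulators tested 2 were lower (10.5%, beside 1.76% of all genes), 0 were higher and 17 were not called. By limma 5 had an unadjusted p under 0.05, 3 of them higher. BIRC3, an inhibitor of apoptosis and NF-kappaB target, fell from 29.2, 32.5 and 23.3 FPKM to 15.2, 14.8 and 16.8 FPKM (-0.81 ± 0.16, adjusted p = 0.0118). CFLAR, which blocks caspase-8, fell from 31.4, 35.8 and 32.6 FPKM to 20.4, 21.5 and 18.6 FPKM (-0.69 ± 0.15, adjusted p = 0.0174). BIRC3 lost its call without 100 nM replicate 1 or 2, CFLAR without 100 nM replicate 1 or 3, and both without DMSO replicate 1 or 2 (adjusted p up to 0.0801 and 0.0981). MCL1, the BCL2 relative that myeloma cells rely on, stood at 632, 608 and 493 FPKM in DMSO and 844, 592 and 752 FPKM at 100 nM, with overlap (0.33 ± 0.15, adjusted p = 0.295). BCL2L1 (-0.41 ± 0.28) was not called. Of 8 ABC drug transporter genes 0 were called, 1 at an unadjusted p under 0.05, and ABCB1 had a difference of 0.12 ± 0.20.

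Metabolic lists gave a call here and there. The sterol regulator INSIG1 (-0.75 ± 0.18, adjusted p = 0.0342) and the hexokinase HK2 (-0.78 ± 0.20, adjusted p = 0.0411) were lower, and both calls were lost without 100 nM replicate 1 or 2 or DMSO replicate 1 or 2 (adjusted p up to 0.152 and 0.189). TM7SF2 was the sole rise of 29 cholesterol synthesis genes and HK2 the sole call of 24 glycolysis genes. Without DMSO replicate 3, 4 cholesterol synthesis and 2 glycolysis genes were lower. The largest named fall was that of TEX19, a gene of germ cells, with 29.4, 32.7 and 20.1 FPKM in DMSO and 6.57, 4.55 and 6.76 FPKM at 100 nM (-2.02 ± 0.20, adjusted p = 1.61e-05). FAM69B (-1.54 ± 0.23), MGAT3, a glycosyltransferase that adds bisecting sugars (-1.47 ± 0.24), and the long noncoding RNA OLMALINC (-1.32 ± 0.21) also fell.

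Exons were counted in the longest annotated transcript of each gene, and called rises had fewer of them than the other genes. In GENCODE 29, which is on GRCh38 while the authors used hg19, 13 of 51 matched rises (25.5%) had 1 exon, beside 7 of 210 falls (3.33%) and 5.07% of all tested genes. Of the rises 47.1% had 3 exons or fewer, beside 20.0% of falls and 17.96% of all. The medians were 4, 8 and 8 exons. When the transcript with most exons was counted instead, 10 rises (19.6%), 3 falls (1.43%) and 4.57% of all tested genes had 1 exon. Rises with 1 exon in every annotated transcript included HIST2H2BE, HIST1H2BK and JUNB, while IER3 and ZNF580 had 1 exon in the longest transcript and 2 in another. Among the rises called at 100 nM in the libraries labelled XG1, 8.45% had 1 exon in the longest transcript. Of these rises 29.7% had 3 exons or fewer, with a median of 6, so they too had fewer exons than all tested genes. Both counts were made after the values were seen and are descriptions without a test.

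**Figure D4:**
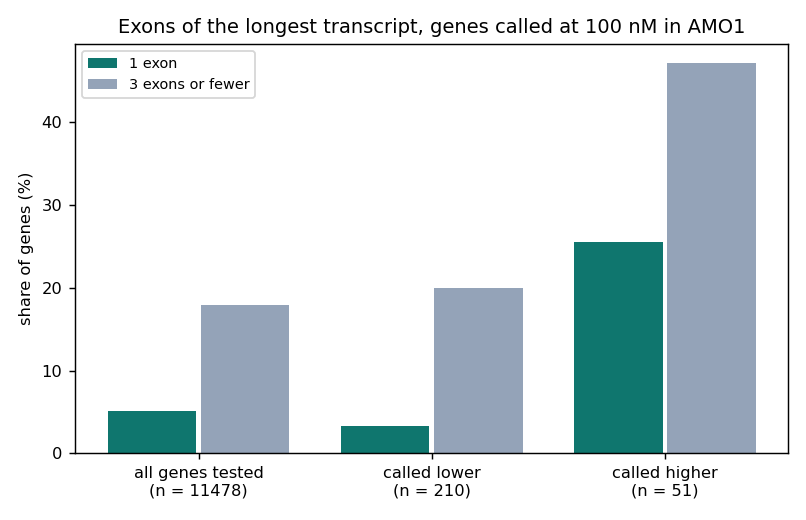
Share of genes in percent (vertical axis, from 0) with 1 exon or with 3 exons or fewer in the longest transcript, among all tested genes, called falls and called rises in AMO1 at 100 nM. Called rises have 25.5% of genes with 1 exon, beside 3.33% of falls and 5.07% of all tested genes.

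The 100 nM libraries were also set beside AMO1 at 1000 nM, with which they share the line and the time. Between the doses 22 of 12204 genes were called (0.18%), 4 higher and 18 lower at 1000 nM. METTL1 went on to 7.36, 6.23 and 6.90 FPKM, below every 100 nM library, a further change of -1.41 (adjusted p = 0.00283) that held without any 1 library. ZBTB32 reached 5.48, 5.95 and 4.91 FPKM (-1.15, adjusted p = 0.00469) and CIITA 5.61, 5.83 and 5.66 FPKM (-0.94, adjusted p = 0.0138). SRSF3 was lower again at 29.6, 35.2 and 36.5 FPKM (-0.79, adjusted p = 0.0171), and GDF15 higher again at 202, 231 and 225 FPKM (1.07, adjusted p = 0.022). The secretoglobin SCGB3A2 had 1.91, 5.52 and 1.29 FPKM in DMSO, 0.0871, 0.685 and 0.107 FPKM at 100 nM and 2.64, 2.34 and 2.50 FPKM at 1000 nM (1.46 between the doses, adjusted p = 0.022). All its 100 nM levels lay under 1 FPKM, and no depth was given to tell how well such low levels are counted.

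Apart from that of METTL1, each of these dose calls was lost when certain single libraries were left out. GDF15 lost its call without any 1 of the 6 libraries (adjusted p up to 0.143). CIITA, SRSF3 and SCGB3A2 lost theirs without 100 nM replicate 1 or 3 or any 1000 nM library (adjusted p up to 0.107, 0.116 and 0.132), and ZBTB32 without replicate 3 of either dose (up to 0.0864). Some other leading genes were apart between the doses without passing the test. HIST2H2BE, at 28.3, 34.5 and 39.7 FPKM at 1000 nM, lay above its 100 nM libraries (0.68, adjusted p = 0.227), and HNRNPDL, at 34.6, 36.9 and 37.0 FPKM, lay below them (-0.45, adjusted p = 0.254). HSPA8, at 34.1, 49.6 and 63.1 FPKM, was lower too (-0.94, adjusted p = 0.0927). In a further 5 genes the libraries of both doses overlapped. The difference between 1000 and 100 nM was -0.04 for POLR2A (adjusted p = 0.997), -0.06 for SNHG12 (adjusted p = 0.99), -0.18 for RBM39 (adjusted p = 0.814), 0.17 for IER3 (adjusted p = 0.852) and 0.08 for TMEM129 (adjusted p = 0.978). A p that misses the threshold does not show that the doses act alike.

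In the libraries labelled XG1, 807 of 12204 genes were called at 100 nM against their own DMSO libraries (6.61%). Of the 268 AMO1 calls 112 were called there too, 41.8% of the AMO1 calls and 13.9% of the XG1 calls, and all 112 had the same direction, 28 higher and 84 lower. TEX19 (-2.02 in AMO1 and -2.03 in XG1), SNHG12 (-1.86 and -2.11), HNRNPDL (-1.55 and -1.42), TAF1D (-1.33 and -1.22) and HERPUD1 (-1.04 and -1.05) had close values in both. POLR2A (1.63 and 0.90), HIST2H2BE (1.99 and 1.05) and GDF15 (1.87 and 1.15) rose in both, and the differences between the lines did not pass the test (adjusted p = 0.314, 0.262 and 0.428). Another 76 of the AMO1 calls, 67 of them falls, were under 1 FPKM in DMSO and at 100 nM in the libraries labelled XG1.

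A test of the difference of the 2 responses called 19 of 12204 genes (0.156%), 8 higher and 11 lower in AMO1. Of the 19, 13 were under 1 FPKM in 1 of the 2 lines, so that a change there could hardly be measured. ZBTB32 and CIITA were among these. They stood at 0.127 and 0.113 FPKM on average in DMSO and at 0.204 and 0.14 FPKM at 100 nM in the libraries labelled XG1, where there was no level that could fall. The other 6 were at 1 FPKM or more in both lines, and RRM2 is the one described here, chosen after its values were seen. RRM2 differed by 0.98 ± 0.19 (adjusted p = 0.0483), with a change of -0.85 in the libraries labelled XG1 and of 0.13 in AMO1, the latter not called (adjusted p = 0.744). The call of RRM2 was lost on leaving out any 1 of 11 of the 12 libraries (adjusted p up to 0.135), and held without AMO1 DMSO replicate 3. HES6, at 77.3 and 74.6 FPKM in the libraries labelled XG1, had a difference of 1.23 that did not pass (adjusted p = 0.0607).

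**Figure D5:**
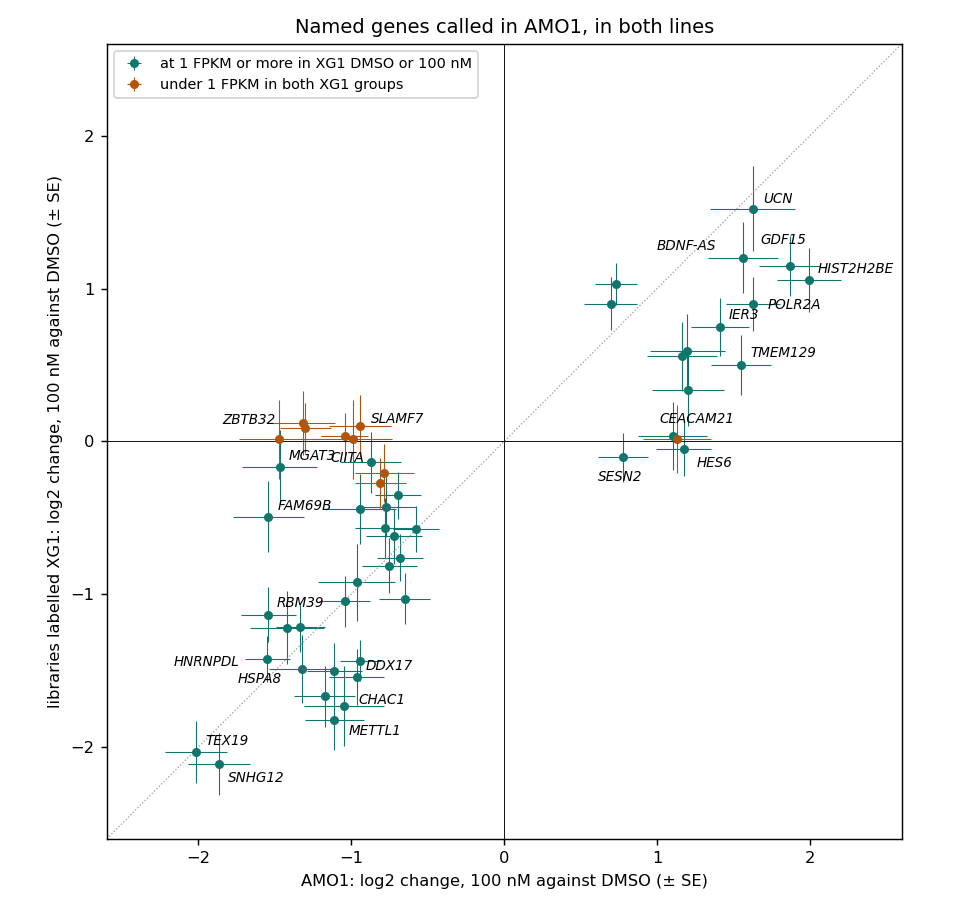
Log2 change at 100 nM against DMSO in AMO1 (horizontal axis) and in the libraries labelled XG1 (vertical axis) of the named genes called in AMO1, with SEs, the dotted line marking equal change. TEX19, SNHG12 and HNRNPDL lie near that line, while ZBTB32 and CIITA, under 1 FPKM in the libraries labelled XG1, lie near 0 on the vertical axis.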

How the data were processed

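RNA of 18 libraries from 2 lines was measured by QuantSeq 3′ end sequencing, 3 libraries for each of 6 groups. HISAT2, Cuffnorm and hg19 are named in the submitters' processing notes. Versions, annotation, strand and any spike-in scaling were not given in the sources used here. Values deposited by the authors were read as FPKM because Cuffnorm is named; per the file headers they are only expression. The tables hold 26249 genes and 92 ERCC spike-ins, and no depth, so the precision of counting is unknown.

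Samples were grouped and numbered by their labels. The 12204 genes whose mean reached 1 FPKM in any group were tested on log2(FPKM + 1) with limma 3.58.1 (R 4.3.3, statmod 1.5.0; trend and robust), 1 mean per group over 18 libraries, two-sided, with Benjamini-Hochberg adjustment over all genes tested and a threshold of 0.05. The script was tested on simulated data. Alternatives changed the pseudocount, filter, scaling, libraries fitted, trend and replicate block, and left out each library. The comparisons, gene lists and named genes were chosen with earlier results of these data known. Named were the 12 largest rises and falls without overlap (small, ribosomal, pseudogene and uncharacterised loci left out), up to 4 called members per direction of a list, 18 genes set by name and the largest differences between lines. Promoters and starts are from RefSeq (GRCh38.p14), matched by current or older symbol.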

Additional observations from a re-analysis of the deposited data

Results flagged for a closer look

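The response of RRM2 at 100 nM differed between AMO1 and the libraries labelled XG1 by 0.98 (log2, adjusted p = 0.0483) in the test of the difference itself, 1 of 19 genes called there. It fell in the libraries labelled XG1 (-0.85) and was not called in AMO1 (0.13, adjusted p = 0.744). The call was lost on leaving out any 1 of 11 of the 12 libraries, with an adjusted p of up to 0.135, and with a replicate block (adjusted p = 0.192). RRM2 was singled out after its values were seen.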

How the results depend on the processing

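Against 268 genes called at 100 nM, the count was 477 with libraries centred on their median, 459 after quantile normalization, 137 and 453 at pseudocounts of 0.1 and 5, and 6 in a fit to the 6 libraries alone, where 1584 genes had an unadjusted p under 0.05. Leaving out 1 library gave 100 to 942. No trend, other filters and spike-in scaling stayed within 1.5 times. The difference of the line responses called 19 genes, and 66 with libraries centred, 76 with quantile normalization, 67 and 6 with pseudocounts of 5 and 0.1, 4 with a minimum of 5 FPKM, 10 with no filter, 10 with spike-in scaling and 3 to 35 without 1 library. Between the doses 22 were called, and 13 in a fit to those libraries alone, 13 and 37 with pseudocounts of 0.1 and 5, and 2 to 17 without 1 library.

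With a replicate block 123 genes were called at 100 nM, 119 of them also without it, 1 for the difference of the responses and 4 between the doses. Same-numbered libraries of AMO1 DMSO and 100 nM did not deviate together (correlations of 0.09, 0.02 and -0.12). Deviations from a mean of 3 libraries depend on each other. These correlations therefore cannot tell whether same-numbered libraries shared a culture or batch. The cause of these moves was not tested.

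All 51 called named genes kept their direction under every alternative, 34 stayed called outside leave-one-out and the 6-library fit, and 31 in every leave-one-out. In the 6-library fit 2 of the 51 were called, and 3 of all 268. With libraries centred NOP16, PPAN, AARS, CHAC1, CFLAR, KLF2, SPIB and HIST1H1E were not called. Differences near 0 changed sign. CCNH lay between -0.19 and 0.25 without 1 library, MNAT1 between -0.24 and 0.091, E2F1 between -0.52 and 0.040, PRDM1 between -0.22 and 0.020, ABCB1 between -0.063 and 0.31 and RRM2 between -0.022 and 0.20. With libraries centred MNAT1 was at 0.12, E2F1 at 0.011 and PRDM1 at 0.055, and after quantile normalization MNAT1 at 0.092 and PRDM1 at 0.031.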

Other observations

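Small nucleolar RNA genes had levels not described above. SNORA30 stood at 50.8, 24.2 and 27.0 FPKM in the AMO1 100 nM libraries and between 0.0699 and 0.126 FPKM in the other 15 libraries, 1000 nM included. It entered the test only through the group in which it is high. SNORA18 was at 22.7, 22.5 and 24.1 FPKM in the AMO1 100 nM libraries and at 0.111, 0.125 and 0.0904 FPKM in AMO1 DMSO. It was also at 24.0 and 30.7 FPKM in replicates 1 and 2 of AMO1 at 1000 nM, and, in the libraries labelled XG1, at 30.6 FPKM in DMSO replicate 2 and 99.6 FPKM in 100 nM replicate 3. SNORA7A, at 92.3, 149 and 49.4 FPKM in the AMO1 100 nM libraries, was likewise at 34.1 FPKM in AMO1 1000 nM replicate 3, and, in the libraries labelled XG1, at 89.8 FPKM in DMSO replicate 1 and 58.2 FPKM in 1000 nM replicate 2. These genes were singled out after their values were seen. Their low values lie where genes barely detected stand, such as CIITA at 0.113 FPKM on average in DMSO in the libraries labelled XG1. No depth was given, so how many reads lie behind their higher levels is unknown.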
